A study of Homo sapiens with 15 samples.

Results

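GEMIN5-overexpressing and untreated HEK-293 cells were compared by the mRNAs recovered from their polysomes, across all genes and all splicing events of the deposited tables. HEK-293 is a human embryonic kidney line. The comparison uses 8 of the 15 libraries of the series. The 4 Polysome GEMIN5 libraries came from cells harvested 24 h after transfection, by Lipofectamine LTX, of pcDNA3Xpress-Gemin5, a plasmid that expresses GEMIN5, and the 4 Polysome control libraries came from untreated cells. The controls received no transfection reagent and no empty plasmid, as far as the labels say, so raised GEMIN5 and the transfection itself cannot be told apart. Both groups were treated with 0.1 mg/ml cycloheximide before lysis, and RNA was taken from fractions 8 to 12 of 12 collected from a 10 to 50% sucrose gradient. The other 7 libraries, 4 Input control and 3 Input GEMIN5, hold RNA of the cytoplasmic lysates. The series calls its replicates independent biological samples.

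Polysomes are mRNAs loaded with several ribosomes, and the heavy fractions of a gradient are enriched in mRNAs that are being translated. GEMIN5 is an RNA-binding protein of the SMN complex, which loads rings of Sm proteins onto small nuclear RNAs, the RNA parts of the spliceosome. It also binds ribosomes and mRNAs and is known as a regulator of translation. A count in a polysome library follows both the amount of an mRNA in the cell and its share on ribosomes. A gene expressed by fewer cells and a gene with less RNA per cell cannot be told apart in such bulk samples.

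Each polysome library held between 11191417 and 15024798 counts assigned to genes, and 14225 to 14851 genes had a count. Levels are given as CPM, a gene's count scaled to a common library total with edgeR's TMM factors, a scale on which 3 counts, the limit that a count of 0 allows, correspond to 0.135 to 0.19 CPM. The HEK-293 markers VIM, NEFL, NEFM, INA, PAX2, KRT8 and KRT18 had counts in all 8 libraries, and none of these 7 genes passed the test. mRNAs typical of hepatocytes divided the control libraries of the series. ALB, the albumin mRNA, had 584, 487, 482 and 448 counts in Polysome control 1 to 4 and 0, 1, 3 and 0 in Polysome GEMIN5 1 to 4. In the lysates ALB had 0, 0, 588 and 414 counts in Input control 1 to 4 and 0 in each Input GEMIN5 library. Polysome control 1 and Polysome GEMIN5 4 also stood apart from the others of their groups in the balance of short and long mRNAs, described further on.

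Of 12197 genes tested, 10 were higher and 39 were lower in GEMIN5 polysomes at an adjusted p under 0.05 (edgeR, quasi-likelihood, Benjamini-Hochberg), 0.402% of the genes tested. Those called higher were 0.082% and those called lower 0.32%. An unadjusted p under 0.05 was reached by 706 genes, 5.79%. All 49 called genes had GEMIN5 libraries that did not overlap the control libraries. Over all genes tested, 200 lay entirely above (1.64%) and 209 entirely below (1.71%). The fold changes of most genes were small. The middle 90 in 100 genes lay between -0.40 and 0.40 on the log2 scale, and the median was 0.01. For 10796 genes, 88.5%, the whole 95% interval of the log2 fold change lay within 1 of no change.

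**Figure D1:**
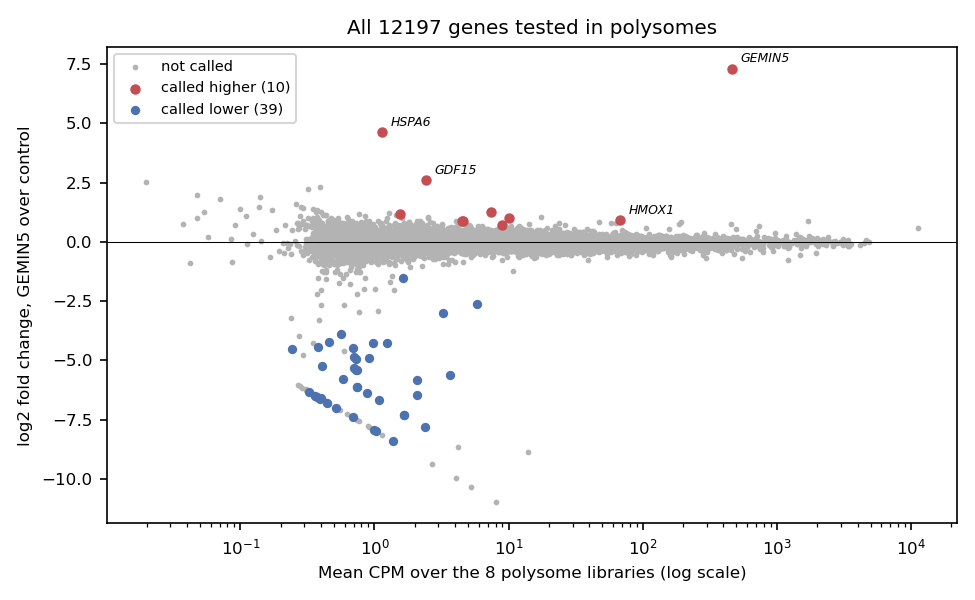
Log2 fold change of GEMIN5 over control in polysomes (y axis) against mean CPM over the 8 polysome libraries (x axis, log scale), 1 point per gene tested. The 10 genes called higher include GEMIN5 at 7.31, HSPA6 at 4.62 and GDF15 at 2.59, and the 39 called lower have low mean levels.

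GEMIN5 itself (chromosome 5, 154887411 to 154938211, minus strand, GRCh38) had the smallest p-value of the genes called. It was measured at 4.19, 5.57, 6.25 and 7.18 CPM in controls 1 to 4 and at 1035, 982, 1034 and 647 CPM in GEMIN5 1 to 4. The log2 fold change was 7.31 (SE 0.22, adjusted p = 3.46e-14, edgeR). Every GEMIN5 library lay far above every control, and GEMIN5 4 carried the least of the 4. Reads across its exon junctions numbered 27, 43, 66 and 46 in the controls and 11680, 13870, 14243 and 7295 in the GEMIN5 libraries. Reads from the plasmid and from the chromosomal gene are added together in these values.

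The other 9 genes that rose include several known stress-response genes: a heat shock chaperone, 2 genes of the integrated stress response, a metallothionein and heme oxygenase. HSPA6 (chromosome 1, 161524540 to 161526894) encodes a strictly inducible cytosolic HSP70 chaperone that unstressed cells hardly express. It had 1, 0, 3 and 2 counts in the controls and 50, 48, 48 and 27 counts in the GEMIN5 libraries. The ratio of the summed counts was 26.9, with a 95% exact counting interval of 12.1 to 74.4, and the test gave an adjusted p of 1.97e-05 (edgeR). HSPA6 was thus near the limit of detection in controls and still low, at 1.46 to 2.83 CPM, in GEMIN5 polysomes. Its single exon has a close relative in HSPA7, so a part of these reads could belong to that copy.

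The HSPA6 promoter is shown because it holds the element that heat shock factor binds. The sequence runs from 250 bases before to 50 after the RefSeq start on GRCh38.p14, at chr1:161524290-161524589, plus strand, and capitals mark matches to GAANNTTC, searched on both strands.
HSPA6 promoter: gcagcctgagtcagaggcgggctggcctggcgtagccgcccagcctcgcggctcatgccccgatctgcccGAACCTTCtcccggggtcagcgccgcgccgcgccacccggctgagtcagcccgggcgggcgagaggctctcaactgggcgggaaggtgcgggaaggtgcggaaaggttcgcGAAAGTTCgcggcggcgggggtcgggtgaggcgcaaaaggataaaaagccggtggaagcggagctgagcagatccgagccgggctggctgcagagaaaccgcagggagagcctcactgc
The window holds 2 matches. Of 35116 RefSeq promoter windows of this length, 2377 (6.8%) hold at least 1. Promoters were in the table for 7 of the 10 genes that rose, and the windows of GEMIN5, GDF15, CRIP2, FES, ZNF79 and CCNL1 held none.

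GDF15 (chromosome 19, 18374731 to 18389176), a secreted stress cytokine of the TGF-beta family induced through ATF4 and CHOP, was measured at 0.952, 0.525, 0.764 and 0.487 CPM in the controls. In GEMIN5 1 to 4 it was at 5.09, 4.09, 2.82 and 4.61 CPM, a log2 fold change of 2.59 (SE 0.26, adjusted p = 2.28e-05, edgeR). The lowest GEMIN5 library lay well above the highest control. NUPR1 (chromosome 16, 28532708 to 28539008), a small nuclear protein also induced by ATF4, was at 4.06, 3.2, 2.65 and 3.04 CPM in the controls and 4.75, 6.34, 5.54 and 7.15 CPM with GEMIN5. Its log2 fold change was 0.88 (SE 0.18, adjusted p = 0.0355, edgeR), and only a narrow gap parted GEMIN5 1 from control 1.

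These 2 genes were the called members of the integrated stress response list, of 26 tested. Its median log2 fold change was 0.09, beside 0.01 over all genes. ATF4, the transcription factor at the head of that response, did not pass the test at 0.12 (SE 0.16, adjusted p = 0.982), nor did PHGDH, an enzyme of serine synthesis, at -0.30 (SE 0.18, adjusted p = 0.934). DDIT3, which encodes CHOP and whose translation depends on an upstream reading frame, was at 5.15 to 10.6 CPM in controls and 11.1 to 15 CPM with GEMIN5. Those groups did not overlap, but its adjusted p was 0.655 (log2 fold change 0.66, SE 0.25, edgeR).

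MT1F (chromosome 16, 56657731 to 56660698), a metallothionein that binds zinc and copper, was at 7.24, 7.72, 5.71 and 5.84 CPM in the controls. It was at 12.8, 12.6, 9.73 and 18.4 CPM in the GEMIN5 libraries, a log2 fold change of 1.01 (SE 0.17, adjusted p = 0.00988, edgeR). All GEMIN5 libraries exceeded all controls. Of the 6 tested members of the metallothionein and zinc list, MT1F alone passed, and the list's median log2 fold change was 0.58. MT1X, at 33.9 to 54.8 CPM in controls and 56 to 107 CPM with GEMIN5, missed the threshold (log2 fold change 0.78, SE 0.17, adjusted p = 0.0559), as did MT2A (0.81, SE 0.19, adjusted p = 0.065). Both passed by library size alone (adjusted p = 0.0277 for each), with DESeq2, with no filter on low counts and without GEMIN5 3 (0.0144 for MT1X, 0.0133 for MT2A). Neither passed in a fit to the 8 polysome libraries alone (adjusted p = 0.58 for each, edgeR) or with the replicate block (0.0845 for each). Nor did either pass without control 2, 3 or 4 or GEMIN5 1, 2 or 4 (adjusted p up to 0.268, edgeR). Metallothionein genes are near-identical copies, and counting could divide reads unevenly among them.

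HMOX1 (chromosome 22, 35380361 to 35394214), the inducible heme oxygenase that degrades heme, was the most abundant gene to rise after GEMIN5. It was at 36.2, 55.6, 43.1 and 52 CPM in the controls and 106, 96.7, 92.4 and 60.2 CPM in the GEMIN5 libraries (log2 fold change 0.93, SE 0.16, adjusted p = 0.00921, edgeR). GEMIN5 4, the library with the least GEMIN5 mRNA, was also the lowest of the 4 for HMOX1 and for HSPA6. It was the highest of the 4 for MT1F (18.4 CPM) and NUPR1 (7.15 CPM), and lay in between for the remaining genes that rose. HMOX1 was the only called member of 16 tested on the oxidative stress list. PRDX1, a peroxiredoxin (log2 fold change -0.11, SE 0.15), and TXN, thioredoxin (-0.05, SE 0.16), had adjusted p-values of 0.981 and 0.989, and the list's median was -0.02.

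CCNL1 (chromosome 3, 157146508 to 157160760), cyclin L1, partners CDK11 in regulating pre-mRNA splicing. It was at 6.03, 6.51, 6.74 and 7.91 CPM in controls and 10.2, 12.2, 11 and 10.4 CPM with GEMIN5 (log2 fold change 0.69, SE 0.13, adjusted p = 0.0238, edgeR). Its junction reads moved too, from 41, 71, 87 and 65 to 98, 160, 128 and 130. The other 11 tested members of the splicing kinase and cyclin L list did not pass. Among them CLK2, a kinase of SR proteins, was at -0.35 (SE 0.15, adjusted p = 0.776) and SRPK1 at -0.03 (SE 0.15, adjusted p = 0.998), both on the log2 scale.

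The remaining 3 genes that rose were CRIP2, FES and ZNF79. CRIP2 (chromosome 14, 105472962 to 105480162), a LIM-domain protein, was at 4.76, 4.78, 4.58 and 3.1 CPM in controls and 11.2, 11.5, 7.8 and 10.9 CPM with GEMIN5 (log2 fold change 1.26, SE 0.20, adjusted p = 0.00653, edgeR). FES (chromosome 15, 90883695 to 90895776), a cytoplasmic tyrosine kinase, was at 1.08, 0.945, 0.809 and 0.973 CPM in controls and 2.37, 2.26, 1.64 and 2.28 CPM with GEMIN5 (log2 fold change 1.17, SE 0.23, adjusted p = 0.0261). ZNF79 (chromosome 9, 127424374 to 127445372), a zinc finger protein, was at 2.41, 2.99, 3.51 and 3.53 CPM in controls and 5.43, 6.3, 5.4 and 6.23 CPM with GEMIN5 (log2 fold change 0.90, SE 0.19, adjusted p = 0.0458). None of the 3 had overlapping groups.

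**Figure D2:**
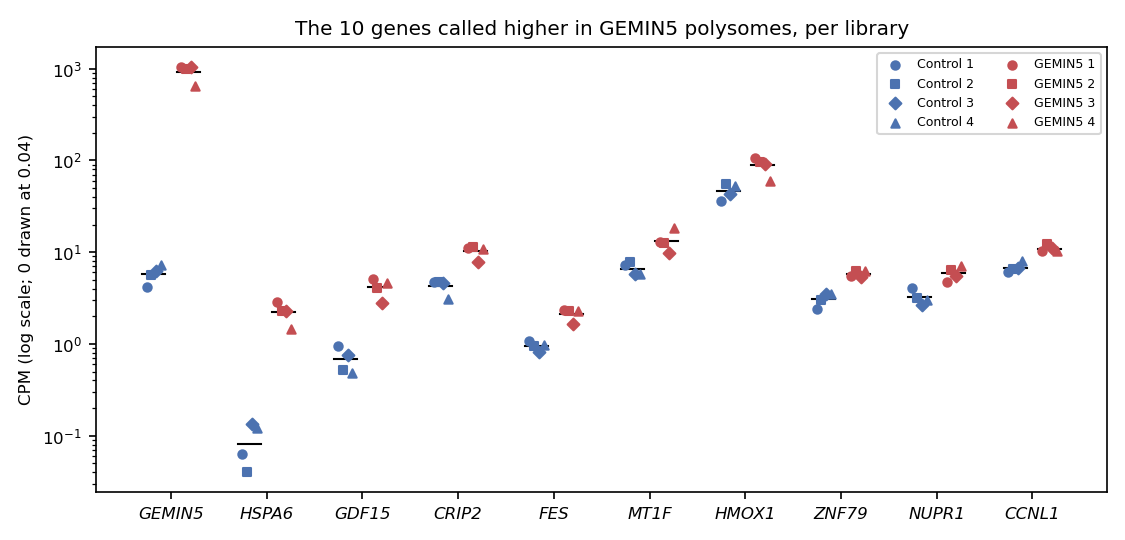
CPM (y axis, log scale, 0 drawn at 0.04) of the 10 genes called higher, with 1 point per polysome library, a marker shape for each replicate number and a bar at each group mean. GEMIN5 runs from 4.19 to 7.18 CPM in controls and 647 to 1035 CPM in GEMIN5 libraries, and the groups of each of the 10 genes are apart.

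GEMIN5, HSPA6, GDF15 and CRIP2 passed the threshold in all 17 alternative settings. The other calls depended on the libraries and the scaling. In a fit to the 8 polysome libraries alone, FES (adjusted p = 0.0571), MT1F (0.118), NUPR1 (0.209) and CCNL1 (0.067) were lost. By library size alone, ZNF79 (0.0811) and CCNL1 (0.0828) were lost. Single libraries decided others. FES was lost without control 2, 3 or 4 or GEMIN5 1, 2 or 4 (adjusted p up to 0.12). MT1F was lost without control 4 (0.0543), and HMOX1 without GEMIN5 1 (0.0609) or GEMIN5 2 (0.0571). CCNL1 was lost without control 2 or 3 or GEMIN5 1, 2 or 3 (up to 0.138). NUPR1 was lost without any library but control 1 (up to 0.156), and ZNF79 without any of the 8 (up to 0.163). The direction was kept in each of these fits, and the log2 fold changes of these 6 genes stayed between 0.63 and 1.28 over all alternatives.

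Other heat shock genes did not pass with HSPA6. Of 19 tested members of the cytosolic heat shock list HSPA6 alone was called, and the list's median log2 fold change was -0.19. HSP90AA1, the inducible cytosolic HSP90, was at 306, 621, 600 and 726 CPM in controls and 386, 362, 495 and 339 CPM with GEMIN5 (log2 fold change -0.51, SE 0.20, adjusted p = 0.702). The groups overlapped through control 1. AHSA1, an activator of HSP90, was at -0.08 (SE 0.11, adjusted p = 0.981).

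No member of the lists for the unfolded protein response (18 tested), interferon response (10), immediate early genes (20) or p53 targets (16) was called. Their median log2 fold changes were -0.07, 0.16, 0.01 and -0.01. HSP90B1, an HSP90 of the endoplasmic reticulum, had the smallest unadjusted p on the first of these lists (log2 fold change -0.37, SE 0.12, adjusted p = 0.433), and CALR and PDIA6, also folding factors of that compartment, were at -0.23 (SE 0.15) and -0.19 (SE 0.11). IFI6, IFITM2 and IFITM3, which interferon induces, lay between -0.03 and 0.28. Among immediate early genes, JUN was at -0.50 (SE 0.30), MYC at -0.17 (SE 0.17) and IER5 at -0.65 (SE 0.25, adjusted p = 0.68). MDM2, the p53 target that ubiquitinates p53, was at 12.3 to 19.5 CPM in controls and 25.8, 26, 27.4 and 14 CPM in GEMIN5 1 to 4 (log2 fold change 0.58, SE 0.21, adjusted p = 0.524). GEMIN5 4 alone kept those groups from separating. BAX, which promotes apoptosis, and CDKN1A, which encodes the cell cycle inhibitor p21, were at -0.11 (SE 0.16) and -0.10 (SE 0.11).

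All 39 genes that fell were of low level, and most were on lists of genes that mark tissues other than the kidney line. Of these genes 14 were on the list of hepatocyte plasma proteins, 5 on that of hepatocyte enzymes, 5 on that of blood and immune cells and 1, SPP1, on that of stroma and bile duct. In GEMIN5 polysomes 11 of the 39 had no count in any library and 35 had at most 10 counts over all 4 libraries. These lists were chosen with earlier results of the same data known, and the counts are a description.

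FN1, fibronectin, was the most abundant gene to fall, with 13.5, 7.93, 7.96 and 10.9 CPM in controls and 1.41, 1.79, 1.55 and 1.73 CPM with GEMIN5. Its log2 fold change was -2.62 (SE 0.40, adjusted p = 0.00547, edgeR). CYP2E1, a liver cytochrome P450, had 94, 63, 56 and 76 counts in controls and 2, 0, 1 and 0 with GEMIN5, a ratio of summed counts of 103 (95% exact counting interval 35 to 503, adjusted p = 0.00868). APOA2, an apolipoprotein of high-density lipoprotein, had 87, 60, 72 and 75 counts in controls and 1, 3, 1 and 0 with GEMIN5 (adjusted p = 0.00868). The controls were clear of 0 for all 3 genes, and the GEMIN5 libraries were at or near it for CYP2E1 and APOA2 but not for FN1.

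A2M, a plasma protease inhibitor, went from 67, 59, 40 and 65 counts to 1, 0, 0 and 0 (adjusted p = 0.00863). CYP3A5, another cytochrome P450, went from 50, 41, 33 and 42 counts to 1, 2, 3 and 3 (adjusted p = 0.00863). ALDH1L1, a folate enzyme, went from 24, 20, 18 and 38 counts to 0, 2, 0 and 1 (adjusted p = 0.00522). FGG, a fibrinogen chain, went from 73, 50, 49 and 62 counts to 0, 1, 0 and 0 (adjusted p = 0.0134, all 4 by edgeR). No GEMIN5 library had more than 3 counts of any of these 4 genes. For genes at 0 in all GEMIN5 libraries the fold is a bound set by 3 counts per library. ADH1B, an alcohol dehydrogenase, was at least 17.8-fold lower, APOH at least 13.3-fold and C4BPA, a complement regulator, at least 12.9-fold. These 3 calls depended on the setting. ADH1B kept its call in 2 of 16 alternatives (adjusted p up to 0.39), C4BPA in 3 of 16 (up to 0.235) and APOH in 4 of 16 (up to 0.226). Of the genes that fell, LYZ, ALDH1L1 and S100A9 kept theirs in every alternative that gave a value.

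Of 27 blood and immune genes, 11 were tested and 5 fell, while the whole list summed to 382 to 512 counts in controls and 228 to 275 with GEMIN5. S100A9, a calcium-binding protein of neutrophils, had 5, 18, 17 and 18 counts in controls 1 to 4 and none with GEMIN5, at least 5.08-fold lower (adjusted p = 0.00799). LYZ, lysozyme, had 28, 11, 31 and 33 counts and then 0, 0, 2 and 0 (adjusted p = 0.00247). CD74, the invariant chain of MHC class II, had 23, 12, 31 and 18 counts and then 0, 1, 0 and 0 (adjusted p = 0.00863). HLA-DRA, an MHC class II chain, had 9, 5, 10 and 10 counts and then 1, 0, 0 and 0 (adjusted p = 0.0118, edgeR). HBB, the beta chain of hemoglobin, had 6, 15, 25 and 11 counts and then none. HBA2 and HLA-DRB1, the most abundant members of the list, did not pass (log2 fold changes -0.40, SE 0.21, and -0.31, SE 0.18).

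Other genes that fell were AGT, AMBP, AOX1, ABCB11, ALDH1A1, AQP9, C3, C4B, CP, CPB2, F5, FGB, FGL1, HGD, HPX, MAT1A, ORM1, PCK1 and SERPINC1, which encode secreted plasma proteins, transporters or metabolic enzymes. DEFA1B, a neutrophil defensin with near-identical copies, VTN, vitronectin, ZBTB20, a transcription factor, LRMDA and SPP1, osteopontin, complete the list. C4B and ORM1 also have near-identical neighbours. LRMDA fell least, from 53, 34, 40 and 47 counts to 17, 9, 21 and 18 (log2 fold change -1.54, SE 0.32, adjusted p = 0.039, edgeR).

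Several liver genes with more counts than these missed the threshold. APOB had 368, 254, 242 and 283 counts in the control polysomes and none with GEMIN5, and its adjusted p was 0.457. SERPINA1, alpha-1 antitrypsin, had 241, 173, 141 and 189 counts and then none (adjusted p = 0.423), and the adjusted p of ALB was 0.166. All 15 libraries share 1 estimate of spread per gene in this fit, and APOB had 0, 0, 284 and 270 counts in Input control 1 to 4. A fit to the 8 polysome libraries alone called ALB, APOB and SERPINA1 lower, with 59 genes lower in all and 6 higher. Of the 10 genes nearest to the threshold, 9 were lower, among them CES1, TAT, PLG, HRG, GC, RELN, HPD and KNG1, and 1 was higher, MT1X.

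The liver genes divided the libraries and not only the groups. The 41 hepatocyte genes with no count in GEMIN5 polysomes and some in control polysomes summed to 1624, 1151, 1086 and 1349 counts in Polysome control 1 to 4. That contrast was fixed by how they were chosen, and the lysates were not used in the choice. They summed to 5, 1, 1246 and 1144 counts in Input control 1 to 4 and to 14, 3 and 3 in the Input GEMIN5 libraries. Untreated cells gave lysates with and without these mRNAs. In 36 of the 39 genes that fell, Input control 3 and 4 both exceeded Input control 1 and 2. This pattern was looked for after the values were seen, and its share over all genes tested was not counted. The exceptions were LYZ, S100A9 and DEFA1B, which had 0 to 3 counts in every Input library. The markers of blood and resident immune cells CD163 and PTPRC had 2 to 8 counts in each control polysome library and none with GEMIN5, and C1QA was at 0 in all 8. KRT7 was at 0 in all 8 and KRT19 at 0 in 6. The part of other cells' RNA in these calls was not tested.

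**Figure D3:**
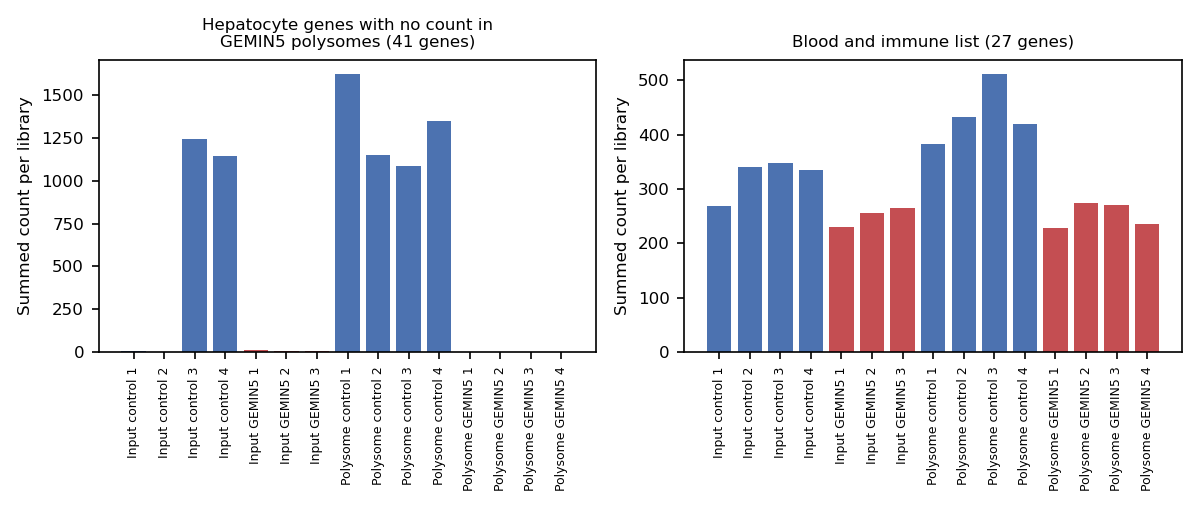
Summed counts per library (y axis) for the 41 hepatocyte genes chosen for having no count in GEMIN5 polysomes and some in control polysomes (left) and for the 27 blood and immune genes (right), in all 15 libraries, with controls in blue and GEMIN5 in red. The liver genes sum to 1086 to 1624 in control polysomes and 1144 to 1246 in Input control 3 and 4, and to at most 14 in the other libraries.

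Summed over whole lists, hepatocyte genes took 4466 to 5596 counts in control polysomes and 2016 to 2905 with GEMIN5. In the lysates the same lists took 1782, 2247, 4708 and 4203 counts in Input control 1 to 4 and 5222, 5637 and 5693 in the Input GEMIN5 libraries. Of the 76 genes of these lists, 47 were at 0 in all GEMIN5 polysome libraries, 6 of them also in all control polysome libraries, and 54 were tested. Their median log2 fold change was -6.51, or -3.30 with the genes at 0 set to their bound. APOC1, which had 63.6 to 107 CPM in controls, and A1BG did not pass and had log2 fold changes of 0.17 (SE 0.18) and -0.09 (SE 0.23). In GEMIN5 polysomes APOC1 alone took 1513 to 2250 counts, so the sums of the hepatocyte lists rest mostly on it there. In the Input the log2 fold changes of APOC1 and A1BG were 2.68 (SE 0.20) and 2.75 (SE 0.25). CPS1, the first enzyme of the urea cycle, had 68 to 214 counts with GEMIN5 and did not pass either (log2 fold change -1.21, SE 0.39, adjusted p = 0.381). The stroma list summed to 257 to 383 counts in controls and 189 to 344 with GEMIN5, groups that overlapped, and its abundant members ACTA2 and COL1A1 were at 0.15 (SE 0.16) and -0.42 (SE 0.31). Markers of stroma and endothelium with few counts were lower. COL3A1 had 9, 6, 12 and 11 counts in controls and 0, 0, 0 and 2 with GEMIN5 (log2 fold change -3.98, adjusted p = 0.065, edgeR). VWF had 10, 5, 6 and 5 and then 0, 1, 1 and 1, and PECAM1 had 6, 4, 10 and 1 and then 0, 0, 0 and 2. Without the hepatocyte, blood and stroma lists the test called 8 genes higher and 10 lower. Those 10 include A2M, CYP3A5, ABCB11, C4B and AQP9, which the lists do not hold. In these genes too, Input control 3 and 4 exceeded Input control 1 and 2. Leaving out the lists thus did not remove all genes with that pattern.

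The machinery of splicing and translation gave no call other than GEMIN5 and CCNL1. Of the 9 tested genes of the SMN complex, GEMIN5 alone passed, and the list's median log2 fold change was -0.01. STRAP, an SMN-associated WD-repeat protein, was at 181 to 232 CPM in controls and 191 to 245 CPM with GEMIN5 (log2 fold change -0.01, SE 0.12, adjusted p = 0.998). Further members of the complex, given outside the rule for named genes, were close to no change. GEMIN2, GEMIN4, GEMIN6 and GEMIN8 lay at -0.01, -0.25, -0.08 and -0.18, with SEs of 0.10 to 0.18. The Sm ring and loading factors (12 tested, median -0.05) were not called. SNRPD2 and SNRPB, the most abundant Sm proteins by gene count, were at -0.04 (SE 0.18) and 0.00 (SE 0.15). SNRPD3 had under 1 CPM in every library and was at -0.78 (SE 0.41, adjusted p = 0.926). Reads across its exon junctions, however, numbered 9629 to 13825 per polysome library. Its gene count thus misses most of its reads, and the fold change says little of its level. The SR and TRA2 factors (13 tested) had a median of -0.03, with SRSF9 at -0.21 (SE 0.14) and SRSF3 at 0.01 (SE 0.17).

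Ribosomal protein mRNAs made up 19.4 to 25.1% of counts in controls and 20 to 25% with GEMIN5, and none of the 77 tested was called. RPS2 was at 0.09 (SE 0.19), RPL8 at 0.01 (SE 0.16) and RPL28 at 0.24 (SE 0.21) on the log2 scale. The other mRNAs with a terminal oligopyrimidine tract, which mTOR regulates, had a median of -0.09 over 19 genes, with EEF1A1 at -0.18 (SE 0.15) and RACK1 at -0.08 (SE 0.15). Of 34 initiation factors none was called. EIF4G1, the scaffold of the cap-binding complex, was at -0.41 (SE 0.18, adjusted p = 0.776), EIF3I at -0.13 (SE 0.12) and EIF1 at -0.01 (SE 0.13). Among mRNAs with regulatory upstream reading frames (13 tested, median 0.17), ODC1 was at 0.05 (SE 0.10).

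None of the 20 cholesterol synthesis, 21 G2/M, 27 DNA replication or 65 nuclear-encoded respiratory chain genes tested was called, and their medians were 0.02, 0.00, -0.07 and 0.01. FDPS (-0.07, SE 0.11), BIRC5 (0.08, SE 0.11), GINS2 (-0.05, SE 0.14) and ATP5F1B (-0.17, SE 0.14) were among the most abundant. Others of these lists were HSD17B7 (0.22, SE 0.10), IDI1 (0.22, SE 0.15), UBE2C (-0.01, SE 0.12), TTK (0.29, SE 0.19), ORC1 (0.29, SE 0.13), PCNA (-0.25, SE 0.13), UQCRC2 (-0.35, SE 0.14) and COX7C (0.01, SE 0.16). Of 45 replication-dependent histone genes, whose mRNAs end in a stem-loop, none was called. H4C12 came nearest, at 48.3, 50.1, 48.8 and 49 CPM in controls and 30.4, 23.3, 15.8 and 44.8 CPM with GEMIN5 (log2 fold change -0.78, SE 0.20, adjusted p = 0.125). All GEMIN5 libraries lay below the controls. H2BC12 was at -0.19 (SE 0.14). These libraries were selected for polyA RNA, which histone mRNAs largely lack.

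The 13 mitochondrially encoded mRNAs had a median log2 fold change of 0.49, and none was called. MT-ND4L came nearest, at 4.5 to 15.3 CPM in controls and 18.2 to 30.2 CPM with GEMIN5 (log2 fold change 1.04, SE 0.24, adjusted p = 0.065, edgeR). It was called higher by DESeq2 and, along with MT-ATP8, in the edgeR fit without control 1. The abundant MT-CO1 and MT-CO3 were at 0.14 (SE 0.25) and 0.33 (SE 0.25). Their share of counts was 0.539 to 1.35% in controls and 0.862 to 1.41% with GEMIN5, with overlapping groups. Mitochondrial mRNAs are translated on the organelle's own ribosomes.

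hnRNP proteins package pre-mRNA and regulate its splicing. Their mRNAs had the lowest list median outside the tissue lists, -0.31 over 26 genes tested, and none was called. HNRNPA1 was at 907, 2091, 1931 and 2181 CPM in controls 1 to 4 and at 1197, 1279, 1483 and 849 CPM in GEMIN5 1 to 4 (log2 fold change -0.56, SE 0.21, adjusted p = 0.651). HNRNPC was at 288, 629, 985 and 813 CPM and then 425, 446, 489 and 313 CPM (log2 fold change -0.70, SE 0.25, adjusted p = 0.53). HNRNPA2B1 was at 386, 1755, 1892 and 2021 CPM and then 864, 971, 1407 and 358 CPM (log2 fold change -0.75, SE 0.37, adjusted p = 0.899). Control 1 lay among or below the GEMIN5 libraries for all 3, and controls 2 to 4 lay above all GEMIN5 libraries.

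This order was the main way in which libraries of the same group differed. The first principal component of the deviations from group means, over 6035 genes above 10 CPM, took 74.6% of the spread within groups. Its weights were 0.52, 0.09, -0.31 and -0.30 for controls 1 to 4 and -0.02, -0.06, -0.48 and 0.55 for GEMIN5 1 to 4. Control 1 and GEMIN5 4 thus stood at one end and control 3, control 4 and GEMIN5 3 at the other. The 300 genes highest in control 1 and GEMIN5 4 had a median transcript length of 887 bases, beside 2381 bases for the 300 lowest and 1499 bases for all. The hnRNP list had the lowest median score on this component, -1.24, and the mitochondrially encoded list the highest, 0.96. The ratio of junction reads in the 3′ part to those in the 5′ part of genes, a measure of RNA integrity, was 0.543 to 1.05 on the log2 scale in controls and 0.61 to 0.774 with GEMIN5. The part of this axis in the comparison was not tested beyond leaving libraries out.

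**Figure D4:**
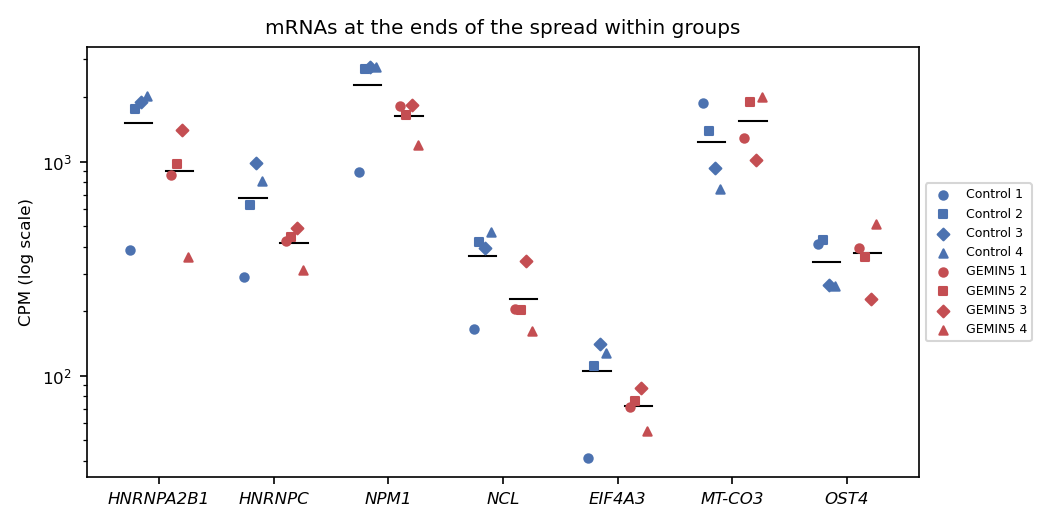
CPM (y axis, log scale) of 7 mRNAs in each polysome library, with a marker shape for each replicate number and a bar at each group mean. For HNRNPA2B1, HNRNPC, NPM1, NCL and EIF4A3, control 1 lies below the other controls and GEMIN5 4 is the lowest GEMIN5 library, while MT-CO3 and OST4 run the other way in GEMIN5 4.

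Leaving out these end libraries brought other genes past the threshold. Without control 1, 18 genes were called higher and 72 lower. Without both control 1 and GEMIN5 4, 25 were called higher and 47 lower, an alternative chosen after the data were seen. That fit shared 9 of the 10 higher and 12 of the 39 lower calls made with all libraries. Its further lower genes included several hnRNP genes. HNRNPA1 (log2 fold change -0.65, SE 0.14, adjusted p = 0.042), HNRNPC (-0.84, SE 0.16, adjusted p = 0.0145), HNRNPA2B1 (-0.81, SE 0.17, adjusted p = 0.0256), HNRNPD and HNRNPM passed there. NPM1, nucleophosmin (-0.63, SE 0.15, adjusted p = 0.0489), NCL, nucleolin (-0.77, SE 0.16, adjusted p = 0.0333), and EIF4A3, the helicase of the exon junction complex (-0.69, SE 0.12, adjusted p = 0.00886), passed too. Among its further higher genes were LIN28B, a repressor of let-7 maturation (0.88, SE 0.18, adjusted p = 0.0225), and CDK6, a G1 kinase (0.89, SE 0.20, adjusted p = 0.0457). These genes were named after their values were seen.

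The effect in polysomes was set beside that in the Input by an interaction term in the same edgeR fit. The Input comparison called 6280 of the 12197 genes (51.5%), and the effect differed between the fractions for 4553 genes (37.3%). Of the genes called in polysomes, 7 of 10 higher and 4 of 39 lower were among these. TMM factors were 0.354 to 0.488 in the Input GEMIN5 libraries and 0.971 to 1.032 in the Input controls. By library size alone the median difference over all genes moves from -0.01 to 1.27, and 8799 genes pass.

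HMOX1 and CCNL1 rose more in polysomes than in the Input under both scalings. The log2 fold change of HMOX1 was 0.93 in polysomes and 0.26 (SE 0.17, adjusted p = 0.218) in the Input, and that of CCNL1 was 0.69 and -0.01 (SE 0.15, adjusted p = 0.961). The difference was 0.67 (SE 0.23, adjusted p = 0.0291) for HMOX1 and 0.70 (SE 0.20, adjusted p = 0.00968) for CCNL1, and 1.96 and 1.99 by library size alone, beside the shift of 1.27 in all genes. MT1F rose less in polysomes than in the Input, where its log2 fold change was 3.26 (SE 0.19), a difference of -2.25 (SE 0.25, adjusted p = 3.38e-06) that remained at -0.95 (adjusted p = 0.00156) by library size alone.

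GDF15, NUPR1, FES and CRIP2 had Input log2 fold changes of 4.05, 2.45, 2.92 and 2.36. Their differences of -1.47, -1.56, -1.75 and -1.10 passed with TMM (adjusted p from 0.000135 to 0.00538) but not by library size, where that of CRIP2 turned to 0.22 (adjusted p = 0.488). For HSPA6 the Input value was 4.98 (SE 0.46) and the difference -0.35 (SE 0.97, adjusted p = 0.823). For GEMIN5 the Input value was 6.68 (SE 0.21) and the difference 0.63 (SE 0.25, adjusted p = 0.056). For ZNF79 the Input value was 1.60 (SE 0.21) and the difference -0.70 (SE 0.29, adjusted p = 0.0644).

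Splicing was measured as percent spliced in (PSI), the share of junction reads that include an exon, use a splice site or retain an intron. Of 14926 events with at least 10 corrected reads in all 8 polysome libraries, 9288 were exons, 2003 alternative 3′ sites, 1940 retained introns and 1695 alternative 5′ sites. The median absolute difference between group means was 1.97 points, and 84.3% of events differed by under 5 points. Limma on the log2 odds of inclusion called 3 events at an adjusted p under 0.05, all lower with GEMIN5, 0.0201% of those tested, and 728 (4.88%) had an unadjusted p under 0.05. A rule of size, at least 15 points between means and at least 5 points between the ranges of the groups, was met by 6 higher (0.0402%) and 7 lower events (0.0469%), 0.0871% in all. The calls depend on how limma shares the spread among events. With a trend on mean log2 odds, or with no trend, 0 events passed, while 724 and 703 had an unadjusted p under 0.05.

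The exons of the called events and of the largest changes are shown with 20 bases of the neighbouring exons in lower case and the alternative exon in capitals (for IRF3 only its first 60 bases), on the strand of the gene, from GENCODE v29 transcripts (GRCh38). The RPL41 exon lies at chr12:56117189-56117211 on the plus strand, and on the minus strand IRF3 lies at chr19:49661948-49662328, HPS4 at chr22:26457859-26457967 and TAF6 at chr7:100113349-100113405.
RPL41 exon: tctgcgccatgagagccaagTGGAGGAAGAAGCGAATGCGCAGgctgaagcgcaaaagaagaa
IRF3 exon start: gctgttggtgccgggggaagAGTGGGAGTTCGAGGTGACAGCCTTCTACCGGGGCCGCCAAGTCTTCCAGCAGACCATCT
HPS4 exon: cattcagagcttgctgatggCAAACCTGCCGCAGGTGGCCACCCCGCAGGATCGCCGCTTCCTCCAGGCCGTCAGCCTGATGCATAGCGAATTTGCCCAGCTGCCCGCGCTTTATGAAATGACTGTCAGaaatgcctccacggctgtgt
TAF6 exon: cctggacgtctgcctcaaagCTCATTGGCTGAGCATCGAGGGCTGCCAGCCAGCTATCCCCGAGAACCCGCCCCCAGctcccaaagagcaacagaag
The printed exon bases are all coding. The 381-base IRF3 and 57-base TAF6 exons keep the reading frame, whereas the 23-base RPL41 and 109-base HPS4 exons shift it when skipped.

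RPL41 encodes the smallest protein of the large ribosomal subunit. Inclusion of the 23-base exon was 93.7, 89.1, 87.4 and 90.2% in controls 1 to 4 and 62.1, 70.6, 79 and 79.4% in GEMIN5 1 to 4. The difference of means was -17.4 points (log2 odds -1.76, SE 0.24, adjusted p = 2.03e-05, limma), and no GEMIN5 library reached a control. In Input libraries, which the call did not use, inclusion was 89.3, 91.7, 88.8 and 87.4% in controls and 68.7, 73 and 71.6% with GEMIN5. Reads that skip the exon numbered 6, 8, 8 and 6 in controls and 26, 22, 10 and 21 with GEMIN5. The inclusion reads are uneven, from 253 to 507 on the upstream junction but 3 to 20 on the downstream one, so the PSI rests almost wholly on one side. Raw reads spliced across the intron before this exon, which ends at the exon's start, numbered 1221 to 2903 per polysome library. Skipping reads were few beside these, so the PSI is not the share of RPL41 mRNA without the exon.

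The intron before that exon, chr12:56116800-56117188, was called as well. Its retention was 8.47, 7.74, 8.5 and 8.5% in controls and 4.82, 5.97, 5.55 and 6.63% with GEMIN5, a difference of -2.56 points (log2 odds -0.58, SE 0.11, adjusted p = 0.00375, limma). It rests on 214 to 457 reads at one exon-intron boundary and 0 to 4 at the other. The call was lost without GEMIN5 1 (adjusted p = 0.0771). The level of RPL41 mRNA did not pass the test (log2 fold change 0.23, SE 0.22, adjusted p = 0.96).

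IRF3 is the transcription factor that switches on interferon beta after viral sensing. Its 381-base exon was included at 74.7, 87.5, 85.6 and 87.2% in controls and 69, 71.1, 72.4 and 71.5% with GEMIN5. The difference was -12.8 points (log2 odds -1.13, SE 0.23, adjusted p = 0.0308, limma). The GEMIN5 libraries lay within 4 points of each other, and control 1 stood 10 or more points below the other controls yet above every GEMIN5 library. In the Input libraries inclusion was 82.8, 78.2, 82 and 87.2% in controls and 65.7, 51.5 and 70.5% with GEMIN5. Skipping reads numbered 36, 22, 30 and 19 in controls and 43, 70, 40 and 41 with GEMIN5, with 66 to 186 reads on each inclusion junction. The call was lost with 1 added to each read number (adjusted p = 0.144) and in a fit to all 15 libraries (0.243). It was also lost without control 2 (adjusted p = 0.114) or 4 (0.0654) or GEMIN5 1 (0.0874) or 2 (0.0568). The level of IRF3 mRNA was -0.08 (SE 0.13) on the log2 scale.

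HPS4 encodes a subunit of BLOC-3, a complex needed for lysosome-related organelles such as melanosomes. Its 109-base exon was included at 83.5, 74.1, 75.8 and 70.8% in controls and at 100% in every GEMIN5 library, a difference of 23.9 points (adjusted p = 0.189, limma). A neighbouring 53-base exon at chr22:26458445-26458497 was at 86.7, 52.4, 79.6 and 71.4% and then 100% in all 4 (difference 27.5 points, adjusted p = 0.0632). Both exons share the skipping reads, which numbered 2, 5, 5 and 5 in controls and 0 in each GEMIN5 library. The difference between the groups thus rests on a handful of reads in each control.

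TAF6, a histone-fold subunit of the general transcription factor TFIID, had its 57-base exon included at 80.3, 85.8, 89.3 and 88% in controls and 67.6, 55, 74.6 and 72.9% with GEMIN5 (difference -18.3 points, adjusted p = 0.754). PRUNE1, a phosphoesterase, had a 159-base exon at 53.9, 77.7, 71 and 72.4% and then 87, 88.7, 84.7 and 86.6% (difference 18 points, adjusted p = 0.963). These values rest on 26 to 70 corrected reads per library for TAF6 and 14 to 41 for PRUNE1, with at most 10 raw reads that skip either exon. The other 2 exons past the size rule fell outside the naming rule and are given because they were so few. The difference was 16.7 points for LBX1-AS1, a noncoding antisense RNA, and 15.8 points for RANBP9, a scaffold of the CTLH ubiquitin ligase, whose upstream junction had no reads at all.

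Tandem splice sites gave the other large differences. The junctions are shown with the bases that only the longer form includes in capitals and 20 bases on each side, in transcripts of GENCODE v29 (GRCh38). Those bases lie at chrX:47180038-47180040 on the plus strand for RBM10, chr10:119843248-119843253 on the minus strand for MCMBP and chr5:177441735-177441736 on the plus strand for GRK6.
RBM10 junction: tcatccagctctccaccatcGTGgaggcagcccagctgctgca
MCMBP junction: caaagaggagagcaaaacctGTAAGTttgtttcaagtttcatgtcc
GRK6 junction: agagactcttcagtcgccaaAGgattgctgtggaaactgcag
RBM10, itself a regulator of exon skipping, used the longer 5′ site at 38.2, 32.1, 33.8 and 35.4% in controls and 46.7, 81, 55.8 and 83.4% with GEMIN5 (difference 31.8 points, adjusted p = 0.349). An alternative 3′ site of the same intron moved by -38.3 points (adjusted p = 0.308) on the same 13 to 41 reads, so these are not separate observations. Raw reads at the longer 5′ site numbered 11, 11, 31 and 17 of 14, 13, 38 and 23 in controls. With GEMIN5 they numbered 19, 32, 35 and 16 of 24, 35, 41 and 17. These raw shares overlapped between the groups and lay above the PSI in every library, while those at the 3′ site did not overlap. The 3 bases add 1 codon. In the Input, PSI at this 5′ site was 47.2, 65.4, 36.4 and 69% in controls, and no GEMIN5 library had a value.

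MCMBP, a binding partner of the MCM helicase, used the longer 5′ site at 44, 43.4, 46.5 and 45.5% in controls and 36.4, 27.1, 35.2 and 14.3% with GEMIN5 (difference -16.6 points, adjusted p = 0.947). The controls were within 4 points of each other and the GEMIN5 libraries far apart. In the Input the order was the other way, at 37.2, 45.2, 33.9 and 33.9% in controls and 57.1 and 50% in the 2 GEMIN5 libraries with a value. GRK6, a kinase of G protein-coupled receptors, used the site 2 bases further upstream at 51.3, 47.4, 38.8 and 48.9% in controls and 31.2, 32.7, 9.62 and 5.75% with GEMIN5 (difference -26.8 points, adjusted p = 0.114). In the Input, PSI values of GRK6 were 29, 27, 39 and 36.1% in controls and 11.9, 41.7 and 37.7% with GEMIN5, which overlap. Only 1 to 9 raw reads per polysome library used that site. Retention of a long intron differed by -20 points in TMEM68 and -17.9 points in CA8, but no read crossed one of the 2 boundaries of either intron in any polysome library. For CA8 the Input values ran the other way, at 39.1 to 51.5% in controls and 68.4 to 72.7% with GEMIN5.

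**Figure D5:**
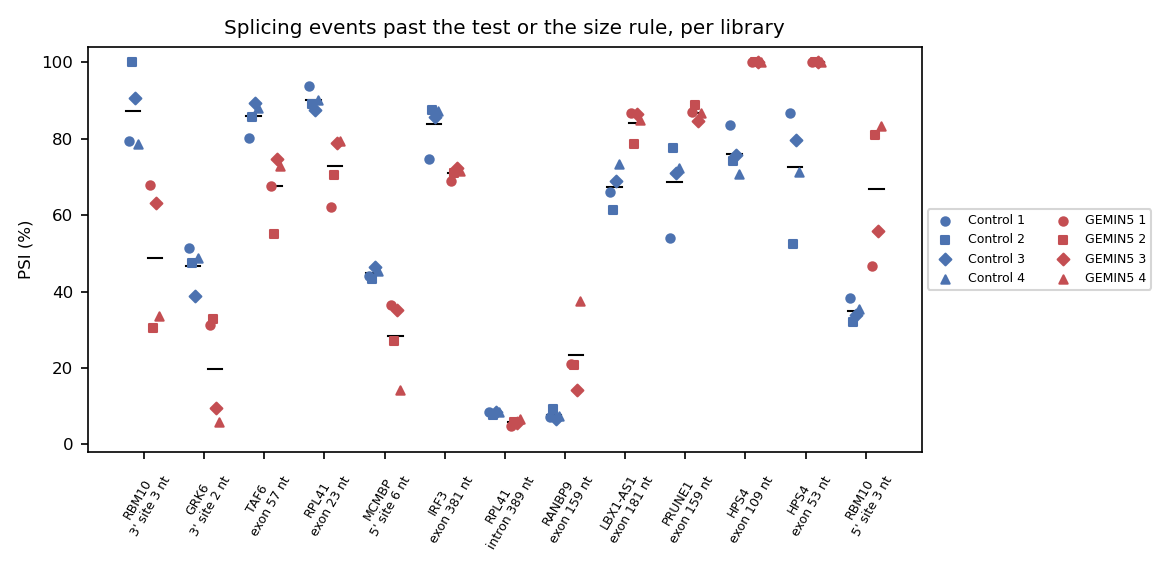
PSI (y axis, %) of the events past the test or the size rule, other than the introns of TMEM68 and CA8, with 1 point per polysome library and a bar at each group mean, ordered by the difference. The groups of each event are apart, with HPS4 at 100% in all GEMIN5 libraries and IRF3 and the RPL41 exon lower with GEMIN5.

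The SMN complex, Sm ring, hnRNP, SR and splicing kinase lists, which do not hold RBM10, gave no called or size-rule event. Of 10 events in SMN complex genes the largest difference was 6.85 points in GEMIN8, and of 70 in hnRNP genes it was -18.2 points in HNRNPH1, which failed both rules (adjusted p = 0.963). The 30 events of SR and TRA2 genes reached -8.53 points at most, in SRSF11, and the 17 of splicing kinases and cyclins L reached -13.3 points, in CLK1. Of the 95 events in ribosomal protein genes 2 were called, both in RPL41. None of the 12 genes with an event past either rule was among the 49 genes called for level.

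Median PSI per library hardly moved. For exons it was 92.9 to 94.7% over the 8 libraries, with group means of 94.2% (SD 0.514, n = 4) in controls and 93.8% (SD 0.73, n = 4) with GEMIN5 (exact two-sided permutation p = 0.371, adjusted p = 0.522). For retained introns the means were 6.41% (SD 0.26, n = 4) and 6.33% (SD 0.431, n = 4) (exact permutation p = 0.771, adjusted p = 0.823). Over the family of 16 library measures no adjusted p was below 0.114. The exact test of 4 against 4 libraries cannot go below 0.0286. That smallest p was reached by 4 measures: the shares of the hepatocyte lists, of the blood list and of the metallothionein list, and the number of genes with counts, which was 14524 to 14851 in controls and 14225 to 14369 with GEMIN5.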

How the data were processed

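Gene values are whole-number counts per gene that the authors deposited, per the file headers, for 15 libraries. The submitters' processing notes name STAR 2.7.10a and featureCounts with GRCh38. Splicing values are percent spliced in (PSI, 0 to 100) in the table layout that vast-tools writes, deposited by the authors with a quality field of raw and corrected reads per event (hg38). Of 1948964 PSI values with at least 10 reads, 100.0% matched their corrected reads within 0.5 points. The libraries were made with a stranded polyA kit, per the labels' protocols. The sources used here do not give the counting options.

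Genes were tested with edgeR 4.0.16 (filterByExpr, TMM, quasi-likelihood, 1 mean per group over all 15 libraries, Benjamini-Hochberg, adjusted p under 0.05). Events needed 10 or more corrected reads in each of the 8 polysome libraries, and those with every PSI under 5 or every PSI over 95 were dropped. The first alternative of each splice site group was left out as complementary. Limma 3.58.1 was fitted robustly to log2 odds of inclusion after 0.5 was added to both read numbers, with the prior spread following the sampling variance. That trend was chosen on simulated data in which every event had the same spread between libraries (0.15 on the natural log odds), which favours such a trend. Among 14926 events, 200 were changed, all upward and from middle PSI. Changes of 10, 20 and 30 points were recovered at 10.4, 44.8 and 86.4%. The called events lie at higher or lower PSI and fell, so the simulation cannot decide between the trends for them. The gene test recovered 26.9, 71.6 and 100.0% of simulated 1.5-, 2- and 4-fold changes among 11831 genes. Counting intervals and floors (3 counts per library) are exact at 95% and cover counting error only. Alternatives were other scalings and filters, DESeq2 1.42.0, a replicate block, leaving out libraries, and other event settings.

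The text names GEMIN5, every called gene, the 2 most abundant members and the one with the smallest p of each gene list, and the 10 genes nearest to the threshold, of which 1 is not reported here. For events it names the called ones and up to 3 per type and direction by gap. Members and lists were chosen with earlier results of these data known. Of same-numbered libraries only those numbered 3 deviated together (correlations -0.092, -0.124, 0.685 and -0.765 over 5774 genes), and the numbers were not used as pairs. The libraries numbered 3 stood at the same end of the main component within groups, so these correlations cannot settle whether libraries were paired.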

Additional observations from a re-analysis of the deposited data

Results flagged for a closer look

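Single libraries stood far from the other 3 of their group in 6 of 93 group ranges checked, where chance alone would mark about 1 in 20. GEMIN5 mRNA was at 647 CPM in Polysome GEMIN5 4, below the other 3. CRIP2 was at 3.1 CPM in Polysome control 4 and at 7.8 CPM in Polysome GEMIN5 3, each the lowest of its group, and FES was at 1.64 CPM in Polysome GEMIN5 3. The IRF3 exon was at 74.7% in Polysome control 1, and the retained RPL41 intron at 7.74% in Polysome control 2.

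The GEMIN5 effect differed between polysomes and the Input, by the interaction test in edgeR, for 11 called genes. It was smaller in polysomes for GDF15 (-1.47 on the log2 scale), CRIP2 (-1.10), FES (-1.75), MT1F (-2.25) and NUPR1 (-1.56), and larger for HMOX1 (0.67) and CCNL1 (0.70). Among genes that fell the difference was negative for ABCB11 (-5.79), ZBTB20 (-2.44), VTN (-4.02) and LRMDA (-2.53). The Input log2 fold change was above 0 for LRMDA (0.99, SE 0.35, adjusted p = 0.0232, edgeR) and ABCB11 (0.53, SE 0.66). It was below 0 for ZBTB20 (-0.55, SE 0.62) and VTN (-0.41, SE 0.98). In each of these genes Input control 3 and 4 exceeded Input control 1 and 2, so the Input effect is set against the mean of unlike controls. The difference of VTN did not pass with the replicate block (adjusted p = 0.0576, edgeR). In ABCB11 the GEMIN5 polysome libraries had 1 count in all, so its size depends on the prior count. By library size alone MT1F, HMOX1, CCNL1, ABCB11 and LRMDA still passed. In that scaling 8799 of the 12197 genes passed, 8412 of them larger in polysomes, so passing says little for HMOX1 and CCNL1.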

How the results depend on the processing

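The 49 genes called became 114 by DESeq2 (28 higher, 86 lower). Without the hepatocyte, blood and stroma lists, which miss some liver genes, they became 18 (10 lower). The 8 polysome libraries alone gave 6 higher and 59 lower. With the replicate block 7 were higher and 28 lower, and 4 were higher with the block and the 8 polysome libraries alone. That block lost the calls of ZNF79, NUPR1 and CCNL1 in the fit over all libraries. Leaving out 1 library gave 9 to 90 calls (5 to 18 higher, 4 to 72 lower), the most without control 1. Without control 1 and GEMIN5 4, 25 were higher. GEMIN5, HSPA6, GDF15, CRIP2, LYZ, ALDH1L1 and S100A9 were called in every alternative that gave them a value. By library size alone 28.9% of calls were higher, against 20.4%, and 55.6% were higher without GEMIN5 2. The difference between polysomes and Input passed for 8799 genes by library size alone, where that of CRIP2 turned to 0.22.

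For splicing, 0 events were called with no trend or with a trend on mean log2 odds, 6 with the replicate block (GRK6, HPS4 and MTIF3 joining) and 15 without both end libraries. Leaving out 1 library gave 2 to 11 calls and 28 to 41 events past the size rule, whose ranges narrow with fewer libraries. That rule was met by 8 events at 20 reads, 91 without both end libraries, 28 at 10 points and 4 at 25 points. The difference in the metallothionein list's share of counts ran from 0.00843 to 0.0118 percentage points and that of the histone list from -0.00894 to -0.0052. Depth limits most genes that fell, 35 of 39 of which had at most 10 counts over the 4 GEMIN5 libraries, and the HPS4 events, with 2 to 5 skipping reads per control.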
